A study of Bos taurus with 37 samples.

Results

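The genes described here belong to the DNA repair families of cattle, read in single bovine blastocysts. They were chosen by symbol alone: rows named FANC with a letter from A to M, RAD, XRCC, MSH, MLH, ERCC, BRCA or PARP with a number, the DNA ligases LIG1, LIG3 and LIG4, the polymerases of the POLD, POLE, POLH, POLK and POLQ names, and ATM and ATR, with FANCB left out. The rule gave 78 of the 22628 rows of the expression table, or 76 of its 22214 symbols, because FANCC and MSH3 each stand in a pair of rows. The rows of such a pair may share reads, so their values are uncertain and are given as copy 1 and copy 2.

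RNA was measured in blastocysts produced by in vitro fertilization (IVF-BLs), by somatic cell nuclear transfer (SCNT-BLs) and by sham nuclear transfer (sham NT-BLs), in each sex, and in the fibroblasts that served as nuclear donors. Each sex had 6 IVF-BLs and 6 SCNT-BLs, sham NT-BLs numbered 6 in males and 5 in females, and there was 1 donor library per sex, making 37 libraries in all. SCNT-BLs came from a donor cell fused to an oocyte without its own nucleus, were collected at 6 to 8 days, and were kept when they held 60 to 80 blastomeres. Sham NT-BLs were IVF zygotes at 18 to 22 h that kept both pronuclei, lost the polar body with some ooplasm, and were then activated with 5 µM ionomycin and 2.5 mM DMAP, a kinase inhibitor used to start development. IVF-BLs were not manipulated. The donor cells were ear skin fibroblasts of adult cattle. Each embryo library is 1 whole blastocyst, which mixes trophectoderm and inner cell mass, so fewer cells of a type and less RNA per cell cannot be told apart. The labels do not say whether embryos of a group shared parents, and p-values measure only the spread between these embryos. SCNT-BLs of a sex took their nuclei from the donor fibroblasts of that sex, and the number of animals behind these cells is not given. If it was 1 animal per sex, donor genotype and nuclear transfer cannot be told apart.

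Cells repair DNA through several routes that share parts. Base excision repair and mismatch repair correct altered or mispaired bases, nucleotide excision repair removes bulky lesions, the Fanconi anaemia genes act on crosslinks, and breaks through both strands are rejoined by homologous recombination or by end joining. The kinases ATM and ATR signal that damage is present. The early embryo divides quickly and begins with repair transcripts stored in the oocyte, and many repair genes are also needed to copy DNA in S phase, so their level follows replication as well as damage in many tissues.

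Sex labels matched summed Y-linked expression, at 10.5 to 43.2 FPKM in male libraries and at most 0.271 in female libraries. FPKM, which count fragments relative to transcript length and to the mapped total of the library, summed to between 414105 and 601000 per library. Medians of that sum were 499144 in male and 454944 in female IVF-BLs against 533474 and 546459 in sham NT-BLs. Female SCNT-BL replicates 5 and 6 listed the fewest genes above 0, at 12318 and 12403, against group medians of 13294 to 14360.5. Those medians were 13294 in male and 13347 in female sham NT-BLs, against 13776.5 and 14347.5 in IVF-BLs. Fibroblast markers summed to 13111 and 8357 FPKM in the donor cells and to at most 36.4 in any embryo, and trophectoderm markers to 1715 to 7351 in embryos, with medians in males of 5022 in IVF-BLs and 5136 in sham NT-BLs, and in females of 6059 and 3824. Mean TEAD4 in females was 74.8 FPKM in IVF-BLs and 34.4 in sham NT-BLs, and mean GATA6, a primitive endoderm marker, 174 and 86.6. HNF4A (19.7 and 65.5) and PDGFRA (30.9 and 55.1), of the same marker list, went the other way in these females. Summed medians of the primitive endoderm list were 234 FPKM in female IVF-BLs and 215 in female sham NT-BLs. The inner cell mass markers that the table holds, 4 of 5 with none at 0 in every embryo of a group, differed in sham NT-BLs: their summed median was 42.7 FPKM (16.7 to 66.9) in males and 39.6 (35.1 to 67.4) in females, against 80.0 (58.6 to 92.1) and 101 (69.7 to 171) in IVF-BLs. POU5F1 led that sum, with means in IVF-BLs and sham NT-BLs of 51.9 and 15.6 FPKM in males and 75.3 and 18.1 in females. Mean NANOG was also lower in sham NT-BLs, at 7.35 and 2.72 in males and 5.80 and 4.39 in females. Mean SOX2 was lower by less, at 17.6 and 14.8 in males and 21.9 and 19.3 in females. Mean LIN28B was not lower, at 2.21 and 8.28 in males and 4.69 and 4.77 in females. Summed oocyte markers stayed at or below 15.8 FPKM. The part of these differences in the results on sham NT-BLs was not tested.

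Repair genes were mostly expressed at moderate levels in the blastocyst. Averaged over the 35 embryos, 34 of the 78 rows (43.6%) lay over 10 and up to 100 FPKM, against 20.7% of all rows, and 31 (39.7%) over 1 and up to 10, against 24.9%. A further 8 lay over 0.1 and up to 1 FPKM and 2 at 0.1 or less. FPKM divide by transcript length but do not correct for any unequal amplification of genes, so the order of levels between genes is approximate. The high means included those of RAD23B (166 FPKM), which hands damaged DNA to the nucleotide excision machinery, and MSH6 (133), which recognises mismatches. Also among them were PARP1 (95.9), which senses strand breaks, and LIG1 (95.0), which seals nicks. The lowest were PARP10 (0.0397 FPKM, listed at 0 in 22 embryos), RAD51AP1 (0.0849, at 0 in 16), the meiotic gene MSH4 (0.103, at 0 in 10), the recombination gene XRCC3 (0.142, at 0 in 15) and FANCF (0.457, at 0 in 21).

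Within IVF-BLs the median coefficient of variation of FPKM among members with a mean over 1 FPKM was 33.5% in males (68 rows) and 38.5% in females (67 rows), against 41.5% and 42.7% for all genes at that level. The steadiest in males were POLE (7.14%), POLQ (7.58%), RAD21 (11.9%), ERCC5 (12.0%) and BRCA2 (13.1%), and in females ERCC6 (12.3%), MSH6 (17.8%), RAD9A (18.0%), FANCC copy 1 (18.9%) and ATR (22.9%). The most variable in males were RAD51D (148%), POLD4 (136%), POLK (136%), XRCC2 (120%) and ERCC1 (103%), and in females POLE4 (219%), PARP9 (102%), PARP4 (91.5%), PARP8 (91.0%) and POLD4 (88.2%).

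Fold changes below are differences of mean log2(FPKM + 1), which understate changes of low genes, and a member is called when its adjusted p from limma, over all genes tested, is below 0.05. Across the 6 comparisons and 2 tests of a difference between sexes, 22 members were called at least once and 56 never. PARP10 was below the filter of a mean over 0.1 FPKM in every test, RAD51AP1 in all but SCNT-BLs against IVF-BLs in males, and MSH4 in SCNT-BLs against IVF-BLs in each sex, in SCNT-BLs against sham NT-BLs in males and in the test between sexes of the first of these. RAD9B, XRCC3 and FANCF were below it in female sham NT-BLs against IVF-BLs. Among members in the roles of damage kinases and checkpoint clamp, Fanconi anaemia, PARP family other than PARP1, and cohesin and meiotic genes, limma made 0 calls in the 6 comparisons, with an unadjusted p below 0.05 in 2 of 35, 10 of 53, 2 of 48 and 5 of 33 tests. Between 0.321% and 13.5% of all genes were called in these comparisons, and with so few rows in a role nothing particular to these roles is read from the 0 calls. The share of all genes with an unadjusted p below 0.05 is not given here, so no excess is read from those counts. Under other settings FANCA was called in 2 comparisons, and RAD9A, RAD21 and PARP6 in 1 each.

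**Figure D1:**
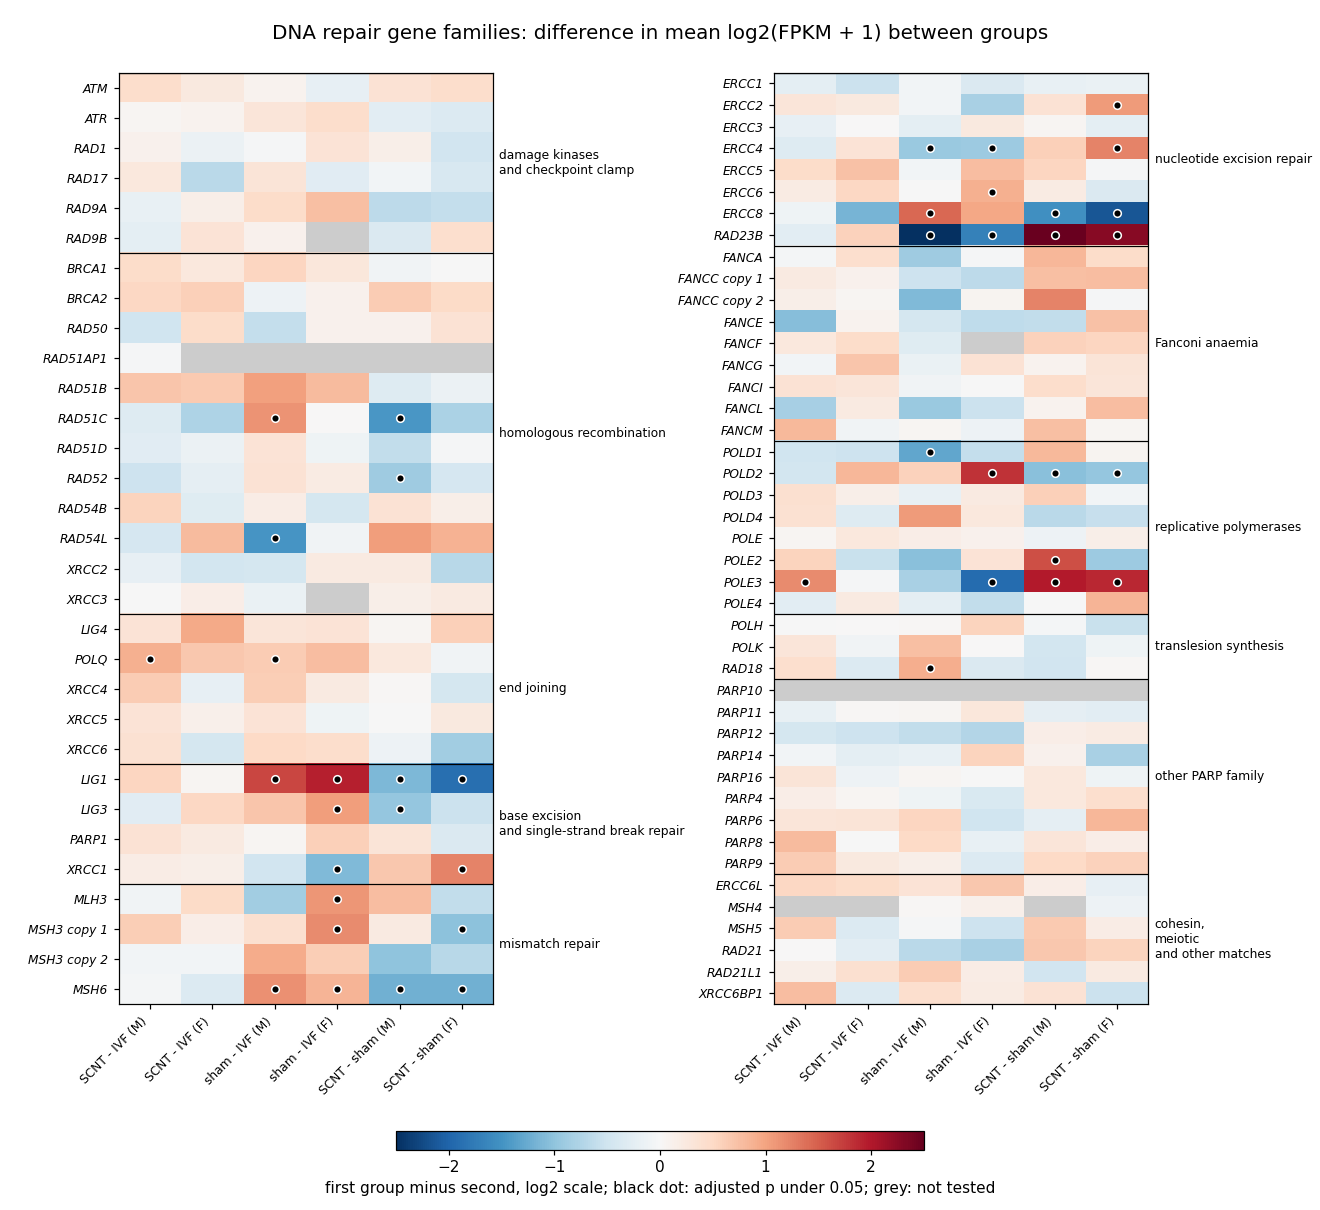
Difference of mean log2(FPKM + 1) for 74 of the 78 rows (vertical axis, grouped by role) in 6 comparisons (horizontal axis), with a dot where the adjusted p from limma was below 0.05 and grey where a row was not tested. Most dots lie in the 4 columns that involve sham NT-BLs, and no dot lies in the column of female SCNT-BLs against IVF-BLs.

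Sham NT-BLs were compared with IVF-BLs, which were neither manipulated nor activated. The labels give day and cell number for SCNT-BLs only, so manipulation and activation cannot be told apart from other differences between these groups. In males, 7 members were higher and 4 lower among 76 tested: LIG1, ERCC8, MSH6, RAD51C, RAD18 and POLQ were among the higher, and RAD23B, RAD54L, POLD1 and ERCC4 lower. These 11 are 14.5% of the members, beside 12.1% of 14902 genes tested, with backgrounds of 6.13% higher and 5.96% lower, so the share was near the background. In females, 8 were higher and 4 lower among 73 tested: LIG1, POLD2, MSH3 copy 1, MLH3, LIG3, ERCC6 and MSH6 were among the higher, and POLE3, RAD23B, XRCC1 and ERCC4 lower. These 12 are 16.4%, beside 13.5% of 15259 genes, with backgrounds of 7.03% higher and 6.47% lower, again near the background. The members' median difference was 0.05 in males and 0.13 in females on the log2 scale, beside -0.02 and -0.09 for all genes. In females it was -0.06 after scaling to the summed FPKM, which moved the median of all genes to -0.22, and the split of calls, 8 higher and 4 lower, became 5 and 7, while centring on the median gave 10 and 2. Of all genes, 2422 of 15286 were called after the scaling and 1969 of 15259 after the centring. Their split by direction is not given, so nothing is read from that of the members.

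SCNT-BLs were compared with sham NT-BLs, which were also micromanipulated and activated but kept the pronuclei of fertilization. In males, 3 members were higher in SCNT-BLs (RAD23B, POLE3 and POLE2) and 8 lower (ERCC8, RAD51C, MSH6, LIG1, POLD2, LIG3 and RAD52 among them) among 75 tested. That is 14.7%, beside 11.8% of 14783 genes, with backgrounds of 5.67% higher and 6.13% lower. In females, 5 were higher (RAD23B, POLE3, ERCC4, XRCC1 and ERCC2) and 5 lower (ERCC8, LIG1, MSH6, MSH3 copy 1 and POLD2) among 76 tested, 13.2% beside 11.3% of 15116 genes, with backgrounds of 5.21% and 6.07%. The medians were 0.14 and -0.03 on the log2 scale, beside 0.01 and 0.04 for all genes. The female median was 0.11 after scaling to the summed FPKM, where that of all genes was 0.15.

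Nuclear transfer against fertilization gave few calls. In males, 3 of 76 members were higher in SCNT-BLs (POLE3 and POLQ among them) and 0 lower, 3.95% beside 6.98% of 14906 genes, with backgrounds of 3.34% higher and 3.64% lower. In females, 0 of 75 were called by limma, beside 0.321% of 15256 genes at the same adjusted threshold. Unadjusted p was below 0.05 for 10 members, a count without the share of all genes beside it, from which no excess is read. Of these, POLD2 (0.82 on the log2 scale, adjusted p = 0.120), ERCC5 (0.73, 0.253) and RAD54L (0.79, 0.305) had the higher mean in SCNT-BLs with 4 others, and ERCC8 (-1.15, 0.364), RAD51C and RAD17 the lower, all with adjusted p from limma. The members' medians were 0.18 in males and 0.09 in females, beside -0.01 and -0.04 for all genes.

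Male and female embryos share no library, so the calls of the sexes can be laid over each other. Of the calls in sham NT-BLs against IVF-BLs, 4 went the same way in each sex (LIG1, MSH6, RAD23B and ERCC4), which is 36.4% of the male and 33.3% of the female list, beside 44.3% and 38.6% for all genes called. For SCNT-BLs against sham NT-BLs, 6 did (RAD23B, POLE3, ERCC8, LIG1, MSH6 and POLD2), 54.5% and 60.0% of the lists, beside 33.5% and 34.3% for all genes. No member was called in opposite directions. The sham NT-BLs serve in both kinds of comparison, and calls of one are not separate evidence for the other.

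**Figure D2:**
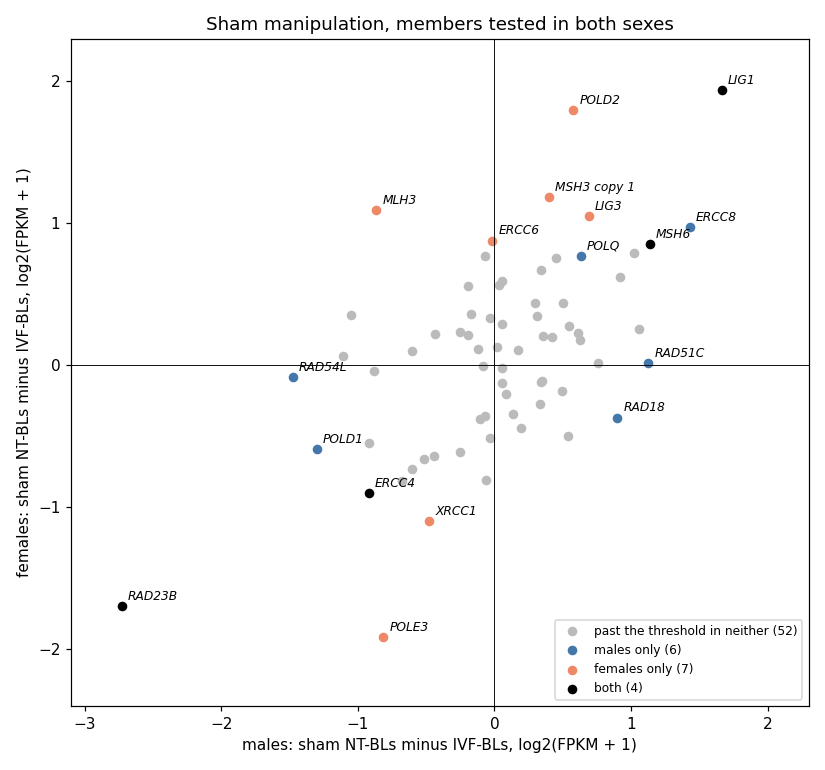
Difference of mean log2(FPKM + 1), sham NT-BLs minus IVF-BLs, in males (horizontal axis) and females (vertical axis) for 69 members tested in both, coloured by call. LIG1 and MSH6 lie at the upper right and RAD23B at the lower left, and 52 of the 69 were called in neither sex.

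Among the nucleotide excision repair genes, RAD23B brings damaged DNA bound by XPC into the pathway and also carries ubiquitinated proteins to the proteasome. RAD23B ran from 140 to 365 FPKM in male IVF-BLs (median 237), from 91.4 to 299 in male SCNT-BLs (252) and from 21.0 to 67.5 in male sham NT-BLs (31.3). The male sham NT-BLs lay below every other male embryo. In females it ran from 47.4 to 387 in IVF-BLs (median 175) and from 182 to 312 in SCNT-BLs (207), and the 5 sham NT-BLs held 91.0, 33.0, 29.5, 51.3 and 37.5 FPKM. They lay below every SCNT-BL and overlapped with IVF-BL replicates 1 and 2, at 76.5 and 47.4. RAD23B was 6.57-fold lower in mean FPKM in male sham NT-BLs than in IVF-BLs, a log2 difference of -2.73 (SE 0.29, adjusted p from limma 3.76e-05), and 3.75-fold lower in females (-1.70, SE 0.46, adjusted p 0.0219). The female call was lost without sham replicate 2 or 3 (adjusted p up to 0.0604) and with no filter on low genes (0.0535). SCNT-BLs held more RAD23B than sham NT-BLs, by 2.47 (SE 0.32, adjusted p 0.000185) in males and 2.27 (SE 0.28, adjusted p 0.000193) in females on the log2 scale.

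**Figure D3:**
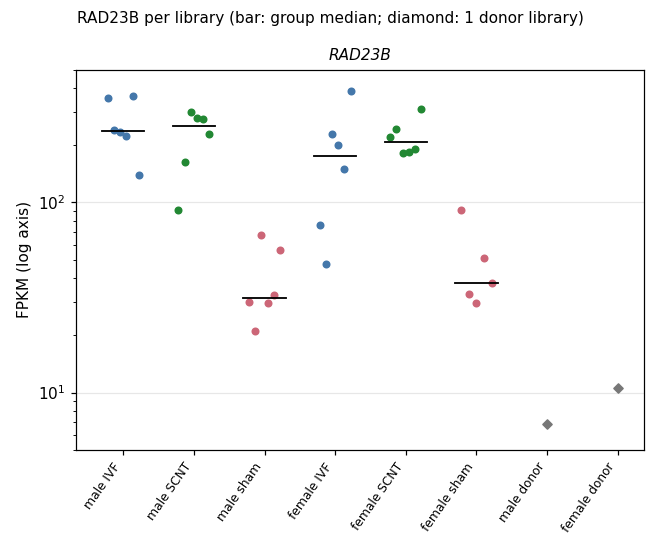
FPKM of RAD23B on a log axis in each library by group, with 1 point per blastocyst, a diamond per donor library and a bar at the group median. RAD23B lies at 21.0 to 67.5 FPKM in male sham NT-BLs, 29.5 to 91.0 in female ones and 6.80 and 10.5 in the donor cells.

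ERCC8 and ERCC6, known as CSA and CSB, start repair at RNA polymerases stalled on damage. ERCC8 ran from 3.76 to 16.0 FPKM in male IVF-BLs (median 6.99), from 5.07 to 12.3 in SCNT-BLs (6.17) and from 15.2 to 37.1 in sham NT-BLs (19.1). Male SCNT-BLs and sham NT-BLs did not overlap, and the highest IVF-BL passed the lowest sham NT-BL. It was higher in sham NT-BLs than in IVF-BLs by 1.43 (SE 0.36, adjusted p from limma 0.0163) and lower in SCNT-BLs than in sham NT-BLs by -1.54 (SE 0.30, adjusted p 0.00308). In females it ran from 5.33 to 16.8 in IVF-BLs (median 9.54) and from 0.524 to 12.8 in SCNT-BLs (3.39), with 13.4, 29.9, 29.1, 24.9 and 8.62 FPKM in the sham NT-BLs. There the difference from IVF-BLs was 0.98 (adjusted p 0.0972) and SCNT-BLs were lower than sham NT-BLs by -2.13 (SE 0.50, adjusted p 0.0122), with replicate 4 of the SCNT-BLs above replicate 5 of the sham NT-BLs. ERCC6 held 16.7 to 22.9 FPKM in female IVF-BLs (median 20.1) and 29.6, 42.2, 34.1, 49.5 and 31.6 in the sham NT-BLs, which did not overlap (0.88, SE 0.21, adjusted p 0.0109), while male groups had medians between 37.9 and 47.1.

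ERCC4, the XPF nuclease that cuts beside the lesion, was lower in sham NT-BLs than in IVF-BLs of each sex. Male IVF-BLs held 8.81 to 14.5 FPKM (median 9.55) and sham NT-BLs 3.64 to 6.56 (5.00), with no overlap (-0.92, SE 0.27, adjusted p from limma 0.0340). Female IVF-BLs held 7.63 to 15.1 (median 10.9) and the sham NT-BLs 8.16, 4.13, 4.77, 5.26 and 3.86, where replicate 1 reached the IVF range (-0.90, SE 0.29, adjusted p 0.0479). Female SCNT-BLs, at 11.4 to 18.1 (median 12.8), were above every sham NT-BL (1.24, SE 0.28, adjusted p 0.00936), and male SCNT-BLs, at 6.41 to 10.4 (7.92), were not called (0.59, adjusted p 0.194). Against IVF-BLs, the male call was lost without sham replicate 4, 5 or 6 or IVF replicate 2, 3, 5 or 6 (adjusted p up to 0.0888) and after median centring (0.0546), and the female call in 9 of 11 fits, all but those without sham or IVF replicate 1 (up to 0.106), and after median centring (0.111). ERCC2, the XPD helicase of TFIIH, held 16.4 to 35.1 FPKM in female SCNT-BLs (median 18.8) and 8.31, 12.6, 11.0, 9.55 and 7.61 in sham NT-BLs, without overlap (1.06, SE 0.26, adjusted p 0.0172). Female IVF-BLs held 13.4 to 32.8, and sham minus IVF was not called in the main female fit. It passed with a filter of a mean over 1 FPKM (-0.81, adjusted p 0.0444), with all groups at once (0.0452) and after total scaling (-1.04, 0.0202). ERCC1, the partner of XPF, had group means of 1.03 to 2.47 FPKM and was called in no comparison.

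In mismatch repair, proteins of the MSH family find mispaired bases and those of the MLH family direct their removal. MSH6 held 83.0 to 116 FPKM in male IVF-BLs (median 97.6), 74.8 to 122 in SCNT-BLs (93.2) and 123 to 326 in sham NT-BLs (238). Male sham NT-BLs lay above all other male embryos, by 1.14 over IVF-BLs (SE 0.24, adjusted p from limma 0.00566) and 1.19 over SCNT-BLs (written as SCNT minus sham, -1.19, SE 0.25, adjusted p 0.00525). Female IVF-BLs held 78.8 to 131 (median 108), SCNT-BLs 56.1 to 103 (86.5) and the sham NT-BLs 202, 199, 197, 218 and 150.4, again above all others. The differences were 0.85 (SE 0.19, adjusted p 0.00838) against IVF-BLs and -1.20 (SE 0.21, adjusted p 0.00199) for SCNT-BLs minus sham NT-BLs. After scaling to the summed FPKM, the female difference from IVF-BLs was 0.61 with an adjusted p of 0.0610.

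MSH3 copy 1, which recognises larger loops, held 16.9 to 34.3 FPKM in female IVF-BLs (median 26.5), 20.2 to 41.7 in SCNT-BLs (27.9) and 38.0, 49.4, 76.9, 94.6 and 50.3 in sham NT-BLs. Only the IVF-BLs were apart from sham NT-BLs (1.19, SE 0.28, adjusted p 0.00990), and SCNT-BLs minus sham NT-BLs was -1.02 (SE 0.27, adjusted p from limma 0.0217, or up to 0.0673 without sham replicate 3 or 4).

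MLH3, which also acts in meiosis, differed between the sexes. Male IVF-BLs held 5.11 to 11.3 FPKM (median 7.57), SCNT-BLs 3.78 to 9.96 (7.86) and sham NT-BLs 2.22 to 6.27 (3.72), overlapping, with a difference of sham from IVF of -0.87 that did not pass (adjusted p from limma 0.0813). It passed with a filter of a mean over 1 FPKM (0.0491), with all groups at once (0.0463) and without the trend (0.0312). Female IVF-BLs held 2.61 to 5.36 (median 3.32), SCNT-BLs 2.74 to 9.04 (5.34) and sham NT-BLs 7.01, 11.5, 9.69, 8.15 and 7.21, all above every female IVF-BL (1.10, SE 0.29, adjusted p 0.0205, or up to 0.0579 without sham replicate 2 or 3). The female difference minus the male was 1.96 (SE 0.37, adjusted p 0.00565), the 1 member of 76 called in that test, 1.32% beside 1.22% of 15375 genes, with backgrounds of 0.833% higher and 0.384% lower. Its adjusted p stayed at or below 0.0160 when any embryo was left out. Male and female libraries were sequenced on separate flow cells, so sex and flow cell cannot be told apart in this test.

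Ligases and the scaffold XRCC1 close the break left after base excision. LIG1, which also joins the fragments of the lagging strand in replication, held 42.6 to 65.1 FPKM in male IVF-BLs (median 55.5), 46.0 to 129 in SCNT-BLs (79.5) and 99.7 to 319 in sham NT-BLs (197). Female IVF-BLs held 27.0 to 71.7 (median 37.1), SCNT-BLs 25.9 to 55.8 (42.6) and sham NT-BLs 74.6, 153, 197, 193 and 211. Sham NT-BLs lay above every IVF-BL of their sex, and in females above every SCNT-BL. LIG1 was 3.45-fold higher in mean FPKM in male sham NT-BLs than in IVF-BLs (1.67 on the log2 scale, SE 0.26, adjusted p from limma 0.000632) and 3.93-fold higher in females (1.94, SE 0.31, adjusted p 0.000701). SCNT-BLs were lower than sham NT-BLs by -1.12 in males (SE 0.31, adjusted p 0.0248) and -1.89 in females (SE 0.28, adjusted p 0.000914). The male call against SCNT-BLs was lost without SCNT replicate 3 or 5 or sham replicate 4 or 6 (adjusted p up to 0.0620).

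LIG3, the ligase that works with XRCC1, held 15.0 to 56.7 FPKM in female IVF-BLs (median 37.3) and 68.3, 87.8, 67.6, 78.3 and 65.7 in sham NT-BLs, without overlap (1.05, SE 0.29, adjusted p from limma 0.0244). It was no longer called without sham replicate 2 or 4 (up to 0.0627) and after total scaling (0.0846). In males SCNT-BLs, at 31.3 to 51.2 (median 39.7), were lower than sham NT-BLs, at 42.6 to 171 (76.1), by -0.97 (SE 0.27, adjusted p 0.0296, or up to 0.0692 without SCNT replicate 2, 3, 5 or 6 or sham replicate 4 or 5). XRCC1 moved against its ligase in females: IVF-BLs held 16.1 to 38.0 FPKM (median 20.0), SCNT-BLs 16.6 to 35.6 (23.1) and sham NT-BLs 12.7, 18.8, 9.91, 4.05 and 8.95, a range that reached into the others through replicate 2. Its difference was -1.10 against IVF-BLs (SE 0.33, adjusted p 0.0395), lost in 8 of 11 fits, all but those without sham replicate 1 or 2 or IVF replicate 5 (up to 0.101), with no filter (0.0594) and after median centring (0.0672). SCNT-BLs were above sham NT-BLs by 1.24 (SE 0.33, adjusted p 0.0247), lost without SCNT replicate 1 or 2 or sham replicate 3 or 4 (up to 0.0629). PARP1 had group means of 79.8 to 119 FPKM and was called in no comparison.

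**Figure D4:**
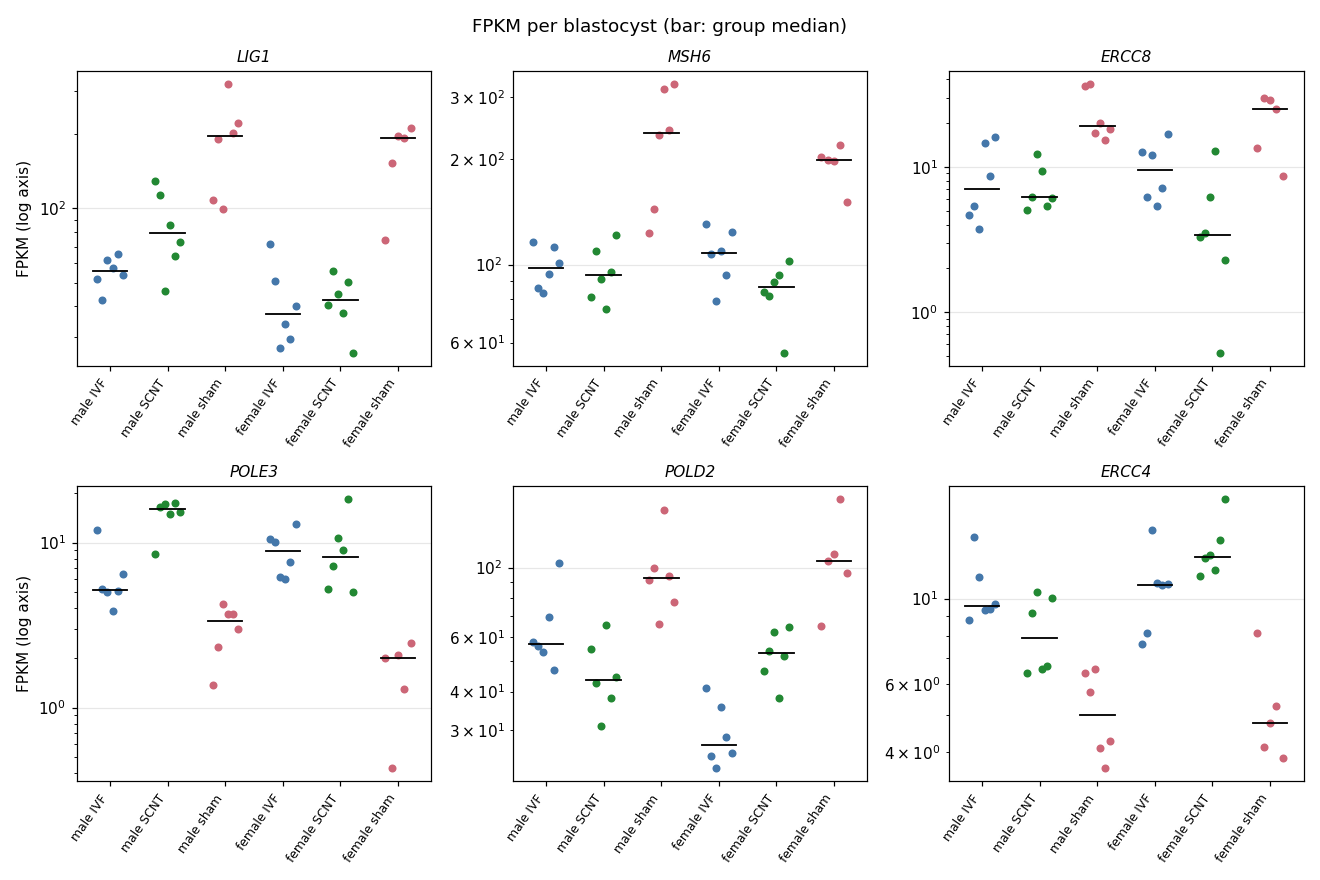
FPKM on a log axis of LIG1, MSH6, ERCC8, POLE3, POLD2 and ERCC4 in each of the 35 blastocysts by group, with a bar at each group's median. Sham NT-BLs have the highest median of their sex in LIG1, MSH6, ERCC8 and POLD2 and the lowest in POLE3 and ERCC4, such as 197 against 55.5 FPKM for LIG1 in males.

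The replicative polymerases copy DNA and fill the gaps that repair leaves. POLE3, a small histone-fold subunit of polymerase epsilon that also belongs to a chromatin remodelling complex, held 3.87 to 11.9 FPKM in male IVF-BLs (median 5.16), 8.50 to 17.5 in SCNT-BLs (15.9) and 1.37 to 4.23 in sham NT-BLs (3.34). Male SCNT-BLs were above every sham NT-BL (1.99, SE 0.30, adjusted p from limma 0.000441) and above 5 of 6 IVF-BLs (1.18, SE 0.28, adjusted p 0.0182), while sham NT-BLs against IVF-BLs did not pass (-0.81, adjusted p 0.139). Female IVF-BLs held 6.06 to 12.9 (median 8.86), SCNT-BLs 5.03 to 18.3 (8.13) and sham NT-BLs 1.99, 0.431, 2.10, 1.30 and 2.47, below every other female embryo. The female differences were -1.92 for sham minus IVF (SE 0.34, adjusted p 0.00181) and 1.89 for SCNT minus sham (SE 0.40, adjusted p 0.00618).

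POLD2, a subunit of polymerase delta, held 47.0 to 104 FPKM in male IVF-BLs (median 56.9), 31.0 to 65.4 in SCNT-BLs (43.6) and 65.7 to 153 in sham NT-BLs (92.3). Female IVF-BLs held 22.7 to 40.9 (median 27.0), SCNT-BLs 38.3 to 64.2 (53.1) and sham NT-BLs 64.7, 105, 110, 165 and 96.1. Sham NT-BLs were above SCNT-BLs without overlap in each sex, and above female but not all male IVF-BLs. Against IVF-BLs, sham NT-BLs were higher by 1.80 in females (SE 0.25, adjusted p from limma 0.000251) and differed by 0.58 in males (adjusted p 0.129). SCNT minus sham was -1.04 in males (SE 0.23, adjusted p 0.00739) and -0.98 in females (SE 0.24, adjusted p 0.0171, or 0.0527 without sham replicate 4). SCNT minus IVF was -0.47 in males (adjusted p 0.229) and 0.82 in females (adjusted p 0.120), and the female minus the male difference was 1.29 (SE 0.29, adjusted p 0.0240). POLD2 was the 1 member of 75 called in that test, 1.33% beside 1.91% of 15425 genes (1.06% higher and 0.849% lower), again with sex and flow cell not to be told apart. Its adjusted p was at most 0.0460 when any 1 embryo was left out, and 0.0513 without female SCNT-BL replicates 5 and 6, a choice made after seeing the data.

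POLE2, another epsilon subunit, held 10.7 to 34.8 FPKM in male SCNT-BLs (median 24.0) and 2.37 to 12.2 in sham NT-BLs (7.31), overlapping at the ends (1.61, SE 0.34, adjusted p from limma 0.00579). Male IVF-BLs held 8.63 to 24.3, and sham minus IVF was not called in the main male fit. It passed with a filter of a mean over 1 FPKM (-1.05, adjusted p 0.0438), with all groups at once (0.0366) and after total scaling (-1.15, 0.0397). Female SCNT-BLs had 4.27 to 13.2 (median 6.62) and sham NT-BLs 17.2, 7.93, 25.1, 9.31 and 22.0, a difference of -0.91 that did not pass (adjusted p 0.127). POLD1, the catalytic subunit of polymerase delta, held 15.5 to 39.4 FPKM in male IVF-BLs (median 20.3) and 2.95 to 15.9 in sham NT-BLs (9.04), overlapping at the ends with a difference of -1.30 (SE 0.37, adjusted p 0.0283). That call was lost without sham replicate 1 or 6 or IVF replicate 1, 3 or 5 (up to 0.0715), and the female difference was -0.59 (adjusted p 0.174). POLE, the catalytic subunit of polymerase epsilon, had group means of 11.7 to 14.7 FPKM and was not called.

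Homologous recombination copies the sister chromatid to mend a break. Its core had no call: BRCA1 had group means of 28.4 to 41.9 FPKM, BRCA2 20.0 to 34.6 and RAD50 58.4 to 84.1, and their log2 differences in the 6 comparisons lay between -0.60 and 0.64. In the main fits, calls fell on accessory members in males. RAD51C, which helps to assemble the recombination filament, held 6.47 to 12.1 FPKM in IVF-BLs (median 10.4), 4.21 to 13.7 in SCNT-BLs (7.79) and 14.8 to 29.6 in sham NT-BLs (22.2). Male sham NT-BLs lay above all other male embryos, by 1.13 over IVF-BLs (SE 0.25, adjusted p from limma 0.00639), and SCNT minus sham was -1.46 (SE 0.31, adjusted p 0.00561). Female sham NT-BLs held 13.0, 17.6, 11.7, 15.2 and 26.4, within the range of IVF-BLs but for the highest.

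RAD54L, a motor protein of recombination, held 84.7 to 142 FPKM in male IVF-BLs (median 113), 48.8 to 143 in SCNT-BLs (82.2) and 16.2 to 82.2 in sham NT-BLs (45.3). The sham NT-BLs lay below every IVF-BL, with a difference of -1.48 (SE 0.34, adjusted p from limma 0.00817), and the female groups were not called in the main fits. SCNT minus sham passed in males with all groups in 1 fit (1.05, adjusted p 0.0348) and with a replicate block (0.0265). In females it passed after total scaling (1.06, adjusted p 0.0346). RAD52, which anneals single strands, held 11.9 to 31.5 FPKM in male SCNT-BLs (median 20.8) and 27.0 to 58.4 in sham NT-BLs (37.9), a difference of -0.88 (SE 0.26, adjusted p 0.0397). That call was lost in 7 of 12 fits that left out SCNT replicate 1, 3, 4 or 6 or sham replicate 2, 4 or 5 (up to 0.0933), with no filter (0.0512) and after total scaling (0.0523).

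In end joining, POLQ joins resected ends by short repeats. It held 16.2 to 19.7 FPKM in male IVF-BLs (median 18.3), 19.2 to 51.9 in SCNT-BLs (35.6) and 21.5 to 34.4 in sham NT-BLs (29.4). Every male sham NT-BL lay above every IVF-BL, and SCNT-BLs overlapped with IVF-BLs at their lowest value. The difference of SCNT-BLs from IVF-BLs was 0.90 (SE 0.22, adjusted p from limma 0.0204), and that of sham NT-BLs 0.63 (SE 0.19, adjusted p 0.0434), the latter lost in 11 of 12 fits, all but the one without sham replicate 1 (up to 0.0905), with a pseudocount of 0.1 (0.0514) and after total scaling (0.115). In females sham NT-BLs differed from IVF-BLs by 0.77 (adjusted p 0.0871). The Ku subunits XRCC5 and XRCC6, which cap free ends, had group means of 5.69 to 7.62 and 14.8 to 27.7 FPKM, and the ligase LIG4 0.958 to 2.66, and none was called.

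RAD18, which marks stalled replication forks for bypass by translesion polymerases, held 14.7 to 28.8 FPKM in male IVF-BLs (median 15.7) and 17.4 to 50.4 in sham NT-BLs (34.6). The ranges overlapped, with a difference of 0.90 (SE 0.27, adjusted p from limma 0.0360) that was lost in 10 of 12 fits, all but those without sham replicate 3 or IVF replicate 4 (up to 0.0885). POLH, a translesion polymerase, had group means of 5.37 to 10.7 FPKM and was not called. The damage kinases ATM and ATR had group means of 8.60 to 15.9 and 5.50 to 9.83 FPKM, with log2 differences between -0.35 and 0.44 and adjusted p of 0.317 or more in all 6 comparisons. RAD21, the cohesin subunit that matches the symbol rule, had means of 20.6 to 37.2 FPKM, and its sham minus IVF differences of -0.68 in males (adjusted p 0.113) and -0.82 in females (0.0656) did not pass. The female one did after total scaling (-1.06, 0.0243) and with all groups at once (0.0471).

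The Fanconi anaemia rows gave 0 calls by limma in the 6 comparisons, with 10 of 53 unadjusted p below 0.05. No share of all genes at that unadjusted limit stands beside this count, and no excess is read from it. In sham NT-BLs minus IVF-BLs, the median of the 9 male rows was -0.44 and that of the 8 tested female rows -0.08, beside -0.02 and -0.09 over all genes tested, so the female value was near that of all genes. FANCA, a core complex gene, had group means of 1.07 FPKM in male sham NT-BLs against 2.80 in IVF-BLs and 2.68 in SCNT-BLs. Its largest differences on the log2 scale were -0.89 and 0.84, and its lowest adjusted p from limma was 0.0879, or 0.0347 and 0.0424 without the trend.

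Partners of these genes outside the symbol rule were read from lists of 99 symbols, of which 93 were in the table, 92 rows being tested. In sham NT-BLs against IVF-BLs, 7 of the 92 were higher and 6 lower in males, beside 6.13% and 5.96% of all genes, and 14 higher and 6 lower in females, beside 7.03% and 6.47%. The clamp PCNA, on which POLD2, LIG1 and MSH6 work, was lower in sham NT-BLs of each sex, with means of 9.59 FPKM in IVF-BLs and 2.96 in sham NT-BLs in males (-1.41, adjusted p from limma 0.0178) and 9.44 and 2.34 in females (-1.62, adjusted p 0.00785). The ubiquitin ligase RNF8 (1.93 and 1.25) and the checkpoint adaptor CLSPN (1.17 and 0.95) were higher in each sex. The histone gene H2AFX was lower in males (-2.54, adjusted p 0.000650), and GTF2H5, a TFIIH subunit, was higher in females (2.90, adjusted p 0.000202). ALKBH3, which strips methyl groups from bases, was higher in male sham NT-BLs (1.85, adjusted p 0.00101) and lower in female ones (-1.23, adjusted p 0.00813), and the female minus the male difference was -3.08 (adjusted p 0.000311). That test between sexes called 1 of the 92 partner rows higher and 2 lower, beside 1.22% of 15375 genes. Sex and flow cell cannot be told apart in it.

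Of the partners, 3 were higher and 5 lower in male SCNT-BLs than in sham NT-BLs, and 6 went each way in females, of 92 rows in each sex and beside 11.8% and 11.3% of all genes called in either direction. PCNA was higher in SCNT-BLs than in sham NT-BLs of each sex, by 1.77 in males (adjusted p from limma 0.00260) and 1.27 in females (adjusted p 0.0269). Male SCNT-BLs against IVF-BLs had TOPBP1, an activator of ATR, higher by 0.82 (adjusted p from limma 0.00543), CLSPN higher by 0.97 (adjusted p 0.0133) and H2AFX lower at -1.73 (adjusted p 0.00881). In females 0 of the 92 partner rows were called by limma and 7 had an unadjusted p below 0.05, without the share of all genes at that limit beside it.

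The donor cells were set beside SCNT-BLs of their sex to see how far the embryos' repair genes lay from those of the cell that gave the nucleus. With 1 library per sex there is no test, and a member is called when the donor value lies outside the range of the 6 embryos and differs from their mean log2(FPKM + 1) by 2 or more. In males, 10 of 75 members were higher in donor cells and 9 lower, 25.3% beside 21.8% of 15285 genes, with backgrounds of 14.3% higher and 7.52% lower. In females, 7 of 76 were higher and 9 lower, 21.1% beside 23.6% of 15578 genes, with backgrounds of 15.5% and 8.08%. The members' median difference was -0.41 in males and -0.09 in females on the log2 scale, beside 0.10 and 0.12 for all genes. After centring on the median the calls were 5 higher and 16 lower in males and 4 and 13 in females, with members' medians of -0.88 and -0.65 beside -0.37 and -0.43 for all genes. That setting called 3258 of 15285 genes in males and 3622 of 15578 in females. Their split by direction is not given, so nothing is read from that of the members.

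Called higher in the donor cells of each sex were XRCC4, ERCC1, POLD4, PARP4 and MSH3 copy 2. XRCC4, the partner of LIG4, stood at 14.3 FPKM in male donor cells against 0 to 2.59 in SCNT-BLs (median 0.612), and at 14.1 in female donor cells against 0 to 1.28 (0.0891). ERCC1 stood at 15.4 and 16.9 FPKM against embryo medians of 0.985 and 1.09, and POLD4, a small subunit of polymerase delta, at 34.5 and 15.2 against 2.06 and 2.00. PARP4 stood at 9.70 and 10.9 against 0.938 and 1.04. MSH3 copy 2 was among the 5 largest in males, at 19.3 against 1.72, and RAD51D in females, at 10.6 against 0.311. The other row of that gene, MSH3 copy 1, went the other way and was not called. It stood at 24.5 FPKM in male donor cells against 52.2, and at 20.4 in female donor cells against 27.9. A direction for MSH3 as a gene is therefore not read.

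Called lower in the donor cells of each sex were RAD23B, MSH6, RAD54L, BRCA2 and POLQ. RAD23B, the highest member in embryos, stood at 6.80 FPKM in male donor cells against 91.4 to 299 in SCNT-BLs (median 252) and at 10.5 in female donor cells against 182 to 312 (207), differences of -4.73 and -4.25 on the log2 scale. RAD54L stood at 11.1 and 10.4 FPKM against medians of 82.2 and 70.9. BRCA2 stood at 3.47 in male donor cells against 40.0, and BRCA1 at 4.12 in female donor cells against 35.2. FANCI stood at 5.74 in male donor cells against 66.3, and FANCC copy 2 was listed at 0 there, against 4.19 to 37.5 in SCNT-BLs. In females ERCC6L, a helicase of mitotic chromosomes, stood at 0.694 against 22.5 and POLE at 0.899 against 12.7. The paper lists ERCC6L among the X-linked genes, and its male values, 4.83 against 20.5, were not called.

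**Figure D5:**
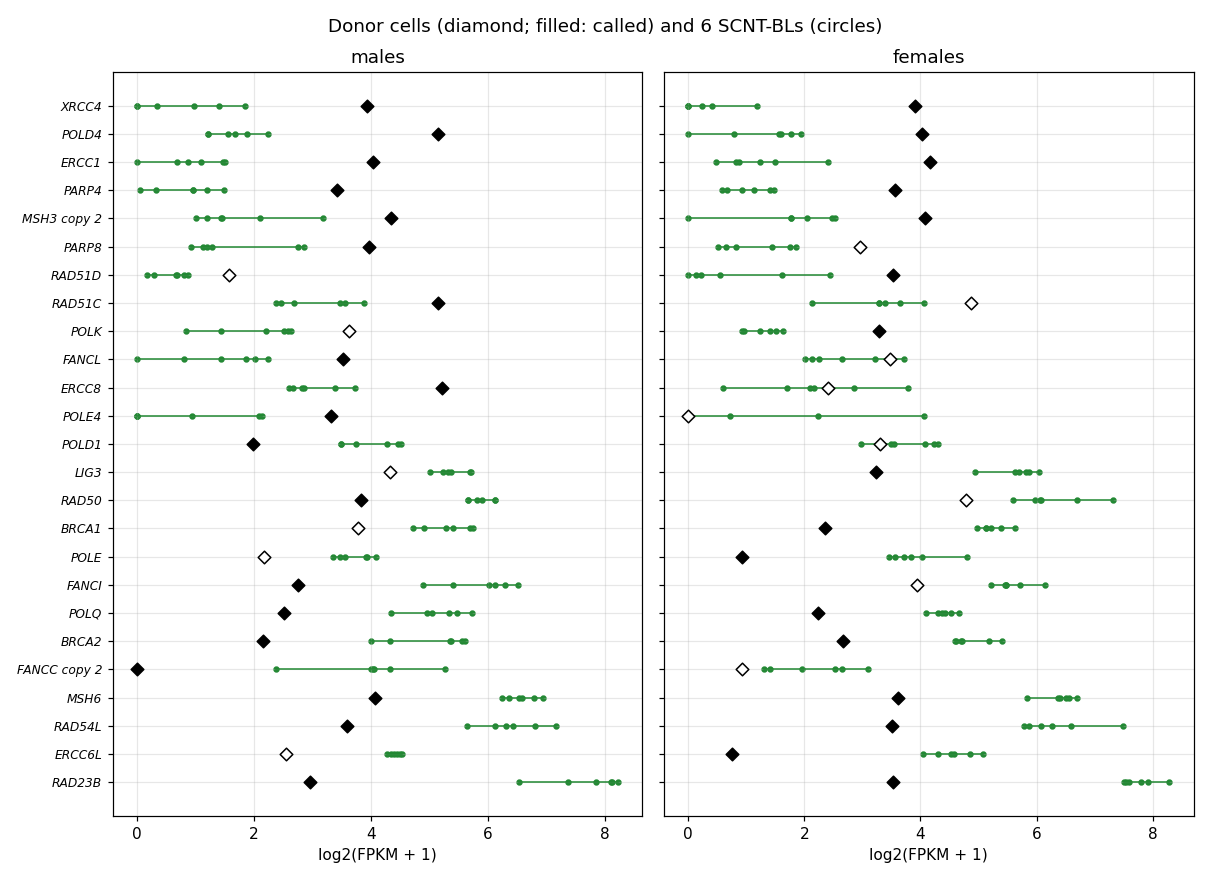
Level as log2(FPKM + 1) (horizontal axis) of the 25 members called in either sex, for donor cells (diamonds, filled where called) and 6 SCNT-BLs (circles joined by a line) of each sex. Donor cells lie above the embryos for members such as XRCC4 and ERCC1 and below them for RAD23B, RAD54L and BRCA2.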

How the data were processed

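The authors amplified poly-A RNA of single blastocysts by pico-profiling, and deposited 1 table of FPKM, made per the methods and the submitters' processing notes with Trim Galore, TopHat, Cufflinks and Cuffdiff on UMD3.1, with versions not given in the sources used here. All 37 columns were matched to samples by name. FPKM already divide by length and mapped fragments, so read depth is unknown and no counting interval is given. Relative depth read from low values ran from 0.369 to 1.45, but only 11.8% to 20.5% of low values lay at that ratio and no reads were recovered. In females this depth ran from 0.429 to 0.824 in sham NT-BLs and from 0.871 to 1.45 in IVF-BLs. In males it ran from 0.536 to 0.801 in sham NT-BLs and from 0.779 to 1 in IVF-BLs, whose replicate 1 was the reference. The part of depth in the calls on sham NT-BLs was not tested.

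Groups of 1 sex were compared on log2(FPKM + 1) with limma 3.58.1 in R 4.3.3 (moderated test with trend, in either direction), over genes whose mean in the embryos entered was above 0.1 FPKM, p-values being adjusted over all those genes by the Benjamini-Hochberg method and called below 0.05. Summaries and figures used Python 3.11.15, numpy 2.4.6, pandas 2.3.3 and matplotlib 3.10.9. The test was first checked on simulated data. Alternatives were another pseudocount, filters, median centring, scaling to the summed FPKM, a replicate block, 1 fit of all groups, no trend, and leaving out each embryo in turn (117 fits).

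The members and gene lists were chosen with earlier results of these data known. Some members and partner genes are not reported here, though counts include them. Named with values were, among the rest, the members past the threshold, genes of a set core of 24, the 5 highest and lowest in level and in variation, and the 5 largest donor differences in each direction. Partner genes were named when past the threshold. Replicate numbers only name the embryos and did not pair them. The highest correlation between libraries of a group was 0.939, and every library counted as a separate embryo.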

Additional observations from a re-analysis of the deposited data

Results flagged for a closer look

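Among 120 sets of embryo values, from 20 called members in 6 groups, 5 held a value set apart from the rest of its group by Dixon's criterion on the log2 scale, and chance marks about 1 in 20 such sets. In FPKM, ERCC2 was lowest in male IVF-BL replicate 4 (6.15, others 13.0 to 15.5), ERCC6 in female SCNT-BL replicate 6 (19.0, others 27.9 to 34.3), LIG3 in female SCNT-BL replicate 5 (29.6, others 48.7 to 64.8), MSH6 in female sham NT-BL replicate 5 (150.4, others 197 to 218) and POLE3 in male SCNT-BL replicate 1 (8.50, others 15.0 to 17.5). Female SCNT-BL replicates 5 and 6, which hold 2 of the 5, are the libraries that listed the fewest genes.

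The effect differed between the sexes for POLD2 in SCNT-BLs against IVF-BLs, by 1.29 on the log2 scale (adjusted p from limma 0.0240), and for MLH3 in sham NT-BLs against IVF-BLs, by 1.96 (adjusted p from limma 0.00565), each as female minus male. Sex and flow cell cannot be told apart in either.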

How the results depend on the processing

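No call changed direction under any alternative. Of 49 calls made by the tests, 48 were kept with a pseudocount of 0.1, 49 with a filter of a mean over 1 FPKM, 44 with no filter, 46 after median centring, 44 after total scaling, 47 with all groups in 1 fit and 47 without the trend. In female sham NT-BLs against IVF-BLs, the count of 12 members fell to 6 with a replicate block. The count over all genes fell from 2061 to 1306 of 15259. Of the tests between sexes, that of SCNT-BLs against IVF-BLs gave 0 instead of 1 with the block and 0 without female SCNT-BL replicates 5 and 6, and that of sham NT-BLs against IVF-BLs gave 0 with the block and 2 with all groups in 1 fit, which added POLD2. The block kept 35 of the 49 calls, but replicate numbers did not pair the embryos: over 34 pairs with the same number, the correlation of deviations from the group means ran from -0.239 to 0.0759 and 0 exceeded 0.1.

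When each embryo was left out in turn, the members called ranged from 3 to 4 (male) and 0 to 0 (female) for SCNT-BLs against IVF-BLs, from 7 to 11 and 7 to 12 for sham NT-BLs against IVF-BLs, from 7 to 12 and 7 to 11 for SCNT-BLs against sham NT-BLs, and from 1 to 1 and 1 to 2 in the tests between sexes. The lowest counts came without sham replicate 6 or IVF replicate 3 or 5 in males and without sham replicate 2 or 3 in females against IVF-BLs, and without SCNT replicate 3 or sham replicate 4 in males against SCNT-BLs. Donor calls ranged from 17 to 20 in males and 15 to 17 in females, and were 25 and 21 with a pseudocount of 0.1. That pseudocount called 5210 of 15285 genes in males and 5542 of 15578 in females. Over all genes, female SCNT-BLs against IVF-BLs gave 49 calls, 1 with no filter, 75 with a filter over 1 FPKM and 20 with the block, with 0 members called in each. FPKM hold no read counts, so low members such as XRCC3, FANCF and PARP10 cannot be given a counting error.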
